A study of Homo sapiens with 6 samples.

Results

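The genes described here are 9 components of the retinoid pathway in 12Z cells: the nuclear receptors RARA, RARB, RARG, RXRA and RXRB, the binding protein CRABP2, the retinoic acid synthesising enzyme ALDH1A3, the retinol uptake receptor STRA6 and the retinoic acid degrading enzyme CYP26B1. They were chosen by name for their roles, with earlier results of these data known. All 9 were found among the 16279 genes of the tables and were among the 13311 genes with enough counts to be tested. 12Z is an established human cell line of endometriotic epithelium, so that each library describes one line and not a tissue. RNA was sequenced from 3 libraries of untreated cells (Control) and 3 of cells given rhChemerin, recombinant human chemerin, at 10 ng/mL for 48 h. No vehicle is named for the Control cells, and both groups otherwise shared the line and culture. The labels call the 3 libraries of each group biological replicates without saying how the cultures were separated, so the p-values below measure the spread between these libraries.

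Retinol taken up from the medium is oxidised to retinal and then, irreversibly, to retinoic acid by the ALDH1A enzymes. Retinoic acid binds the retinoic acid receptors (RARs), which sit on DNA as heterodimers with the retinoid X receptors (RXRs), and CYP26 enzymes end the signal by oxidising it. In the endometrium this pathway is known for its part in the change of the stroma before implantation, and chemerin itself is encoded by RARRES2, a gene named for its response to a retinoid.

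Heterodimers of RAR and RXR bind pairs of the half-site AGGTCA or of variants of it, here AGTTCA and GGGTCA and GGTTCA, and a well-known arrangement is a direct repeat with 5 bases between the half-sites. The letters of 35116 RefSeq promoter windows (GRCh38.p14, 250 bases before to 50 after each start) were searched on both strands for these 4 half-sites. A direct repeat with 5 bases between was present in 31 of them, or 0.0883%, and any half-site in 38.6%. The 9 members had 20 windows. RARB was the 1 member with the direct repeat, at chr3:25428210-25428226 on the strand of the gene, from 53 to 37 bases before one of its starts. Some half-site was present in 8 of the 20 windows. CYP26A1, the sister enzyme of CYP26B1, held the direct repeat on the opposite strand at chr10:93073803-93073819, with the sequence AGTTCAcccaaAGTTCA. The stretches below lie outside annotated exons. Those of CYP26B1 and CRABP2 are shown because these members had the smallest edgeR p-values, although adjusted they were 0.135 and 0.140. Those of RARB and RARRES2 are shown because RARB holds the element and RARRES2 encodes the agent added to the cells. Each is written 5′ to 3′ on the strand of its gene, with capitals marking the direct repeat in RARB and every half-site, on either strand, in the others. The stretch of RARB holds a further half-site, GGGTCA, which is left in lower case. A match is a description of the letters and not a measured binding site.
RARB, chr3:25428143-25428262, plus strand: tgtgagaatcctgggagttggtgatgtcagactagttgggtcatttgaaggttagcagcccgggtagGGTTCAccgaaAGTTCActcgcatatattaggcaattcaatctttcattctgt
CRABP2, chr1:156705915-156706034, minus strand: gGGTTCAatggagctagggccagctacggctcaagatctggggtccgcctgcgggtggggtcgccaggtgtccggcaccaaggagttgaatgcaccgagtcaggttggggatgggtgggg
CYP26B1, chr2:72148039-72148112, minus strand: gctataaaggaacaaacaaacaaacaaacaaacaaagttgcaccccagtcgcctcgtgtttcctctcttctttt
RARRES2, chr7:150341760-150341879, minus strand: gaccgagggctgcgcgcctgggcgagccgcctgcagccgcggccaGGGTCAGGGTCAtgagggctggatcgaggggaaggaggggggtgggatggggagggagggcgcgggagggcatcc
The stretch of CYP26B1 holds no half-site, which says only that these letters are not in this stretch.

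The libraries held 35430881 to 38341643 counts, and their TMM factors, which correct for a few genes taking a large share of the counts, ran from 1.04 to 1.05 in Control and from 0.898 to 1.00 with rhChemerin, the lowest being rhChemerin replicate 3. Scaling by library size alone moved the median log2 fold change of all tested genes from 0.01 to -0.12. Of 10 endometrial epithelial markers, KRT8, KRT18 and KRT19 were abundant, while EPCAM, CDH1, ESR1 and PGR were under 1 FPKM in every library. The 10 markers summed to 1598 to 1867 FPKM in Control and 1762 to 1978 FPKM with rhChemerin. EPCAM, CDH1, MUC1 and PAX8 were lower in every rhChemerin library than in any Control library, beside 25.1% of all genes. The other tested markers, KRT7, KRT8, KRT18, KRT19 and PGR, had log2 fold changes of 0.08, 0.29, 0.16, 0.27 and 0.71. The list median was 0.08, and edgeR called 0 of the list. MUC1 had 12.7 and 7.85 FPKM, with adjusted p-values of 0.135 by edgeR and 0.0404 by DESeq2. All 8 stromal fibroblast markers were detected, with a summed level of 1619 to 2090 FPKM in Control and 1142 to 2216 FPKM with rhChemerin. PDGFRA was higher in every rhChemerin library, beside 7.36% of all genes, at 1.55 and 2.42 FPKM. Its adjusted p-values were 0.124 by edgeR and 0.0206 by DESeq2. For the other stromal markers the groups overlapped, with PDGFRB, HAND2 and COL3A1 below 0 and COL1A1, DCN, LUM and THY1 above. The list median was 0.008. Endothelial markers summed to 1.61 to 2.01 FPKM in Control and 0.991 to 1.41 FPKM with rhChemerin, with 4 of 5, PECAM1, VWF, CDH5 and TEK, under 1 FPKM in every library. VWF was at 23.8% of its Control mean, with adjusted p-values of 0.117 by edgeR and 0.00489 by DESeq2. Of the immune markers, PTPRC was under 1 FPKM in every library, CD68 had 70.0 to 134.5 FPKM over the 6 libraries, and CD14 had 36.9 to 51.5 FPKM in Control and 6.64 to 21.2 FPKM with rhChemerin, and the part of these markers in the results below was not tested.

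None of the 9 members passed the main test, the quasi-likelihood test of edgeR at a Benjamini-Hochberg adjusted p under 0.05, which called 4 of 13311 genes (0.0301%). The lowest levels relative to Control belonged to CYP26B1, at 50.2% of the Control mean, and CRABP2, at 64.7%. These 2 members had unadjusted p-values under 0.05 and were lower, beside 11.4% of all genes lower at that threshold, and no member was higher at it, beside 11.4% of all genes. DESeq2 called 1 member, CYP26B1, beside 5.61% of the genes called lower and 4.0% called higher by that tool. In 2 of 9 members every rhChemerin library was below every Control library in FPKM, beside 25.1% of all genes, and in no member was every one above, beside 7.36% of all genes. After TMM scaling the same counts were 2 lower and 0 higher, beside 16.0% and 16.5%. The count of members that did not overlap was therefore near the share of all genes that did the same.

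**Figure D1:**
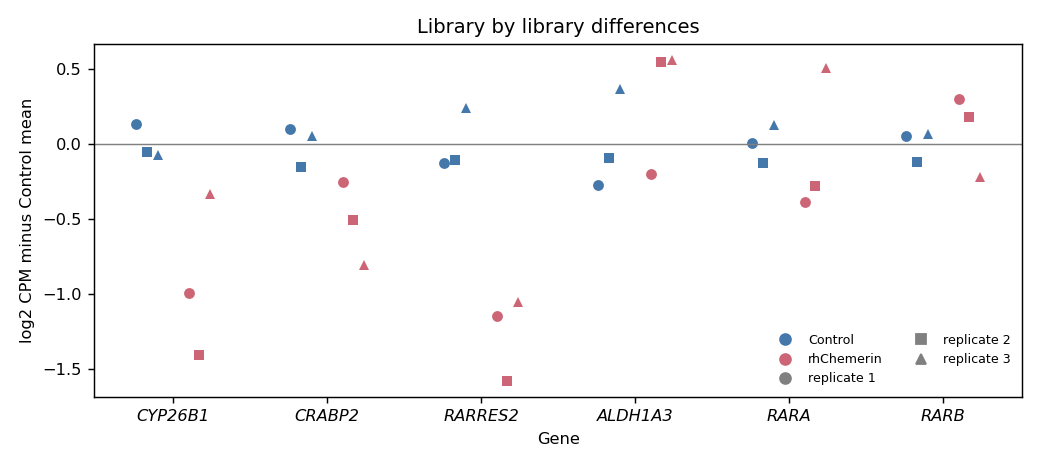
Level of CYP26B1, CRABP2, RARRES2, ALDH1A3, RARA and RARB in each library, as log2 CPM (counts scaled by the TMM-adjusted total) minus the mean of the 3 Control libraries, with colours for the groups and point shapes for the replicates. CYP26B1 lies between -1.40 and -0.33 and CRABP2 between -0.81 and -0.25 in the rhChemerin libraries, below every Control library.

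Among the RARs, RARG was the most abundant. Its level was 31.8, 30.5 and 26.4 FPKM (fragments per length of gene and total count) in Control and 28.3, 23.3 and 20.3 FPKM with rhChemerin. The highest rhChemerin library was above the lowest Control library, so the groups overlapped. Its log2 fold change, rhChemerin against Control, was -0.18 (SE 0.12, edgeR adjusted p = 0.380). RARG lies at chr12:53210567-53232980 (GRCh38) and shares no exon base with another annotated gene.

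RARA, the receptor that is rearranged in acute promyelocytic leukaemia, lies at chr17:40309192-40357643. It had 9.40, 8.73 and 10.3 FPKM in Control and 6.93, 7.25 and 11.6 FPKM with rhChemerin. The lowest and the highest values both came from rhChemerin libraries, with replicate 3 apart from the other 2. On the log2 scale the fold change was 0.00 (SE 0.23, edgeR adjusted p = 0.997). Without rhChemerin replicate 3 it was -0.34, with adjusted p-values of 0.0913 by edgeR and 0.0400 by DESeq2. RARA was called in that 1 of 6 DESeq2 fits that left out a library. RARA shares 556 exon bases with RARA-AS1 on the opposite strand, whose reads cannot be told apart from its own where the counting did not use strand.

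RARB, known as a target gene of the RARs as well as one of them, lies at chr3:25174332-25597932. Its values were 5.67, 5.12 and 5.76 FPKM in Control and 6.48, 5.80 and 4.05 FPKM with rhChemerin. The rhChemerin libraries lay on both sides of the Control range. Its log2 fold change was 0.10 (SE 0.15, edgeR adjusted p = 0.718), with a mean of 5.52 ± 0.348 FPKM in Control and 5.44 ± 1.25 FPKM with rhChemerin (SD, n = 3 each). The 28 exon bases that it shares with TOP2B are a small part of its length.

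RXRA and RXRB, the shared partners of RARs and of many other nuclear receptors, were both measured. RXRA, at chr9:134317098-134440585, had 8.41, 9.19 and 7.09 FPKM in Control and 7.60, 6.87 and 5.77 FPKM with rhChemerin. One rhChemerin library was above the lowest Control library, and the log2 fold change was -0.16 (SE 0.12, edgeR adjusted p = 0.439). RXRB, at chr6:33193588-33200688, had 23.1, 24.2 and 20.9 FPKM in Control and 26.7, 25.6 and 19.1 FPKM with rhChemerin. Here 2 rhChemerin libraries were above the Control range and replicate 3 was below it, with a log2 fold change of 0.19 (SE 0.12, edgeR adjusted p = 0.361). Without that library DESeq2 gave RXRB 0.29 with an adjusted p of 0.0409. That was the call in 1 of 6 DESeq2 fits that left out a library, with adjusted p-values up to 0.730. RXRB shares 244 exon bases with SLC39A7 on the opposite strand. The third receptor, RXRG, had 0 to 6 counts per library and was not tested.

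The makeup of each receptor pool was then calculated from the FPKM, which are per length. RARG made up 66.2% ± 3.57 of the RAR FPKM in Control and 62.8% ± 5.74 with rhChemerin (SD, n = 3 each), and the exact two-sided permutation p was 0.5. RARA made up 21.4% ± 2.55 and 22.9% ± 8.18, and RARB 12.4% ± 1.04 and 14.2% ± 2.60 (SD, n = 3 each), with exact permutation p-values of 0.9 and 0.4. These differences depended on single libraries. For RARG the difference was -3.42 percentage points, and it ran from -5.92 without rhChemerin replicate 1 to -0.29 without rhChemerin replicate 3. For RARA it was 1.56, and ran from -3.06 without rhChemerin replicate 3 to 4.71 without rhChemerin replicate 1, and for RARB it was 1.86, and ran from 1.01 without rhChemerin replicate 2 to 3.35 without rhChemerin replicate 3. RXRA made up 26.7%, 27.5% and 25.3% of RXRA plus RXRB in Control and 22.1%, 21.2% and 23.2% with rhChemerin. The groups did not overlap, and the difference was -4.32 percentage points with an exact permutation p of 0.1. With 3 libraries against 3, this is the smallest p that the design allows, and over the 6 proportions and ratios compared here it was 0.2 after Benjamini-Hochberg adjustment.

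**Figure D2:**
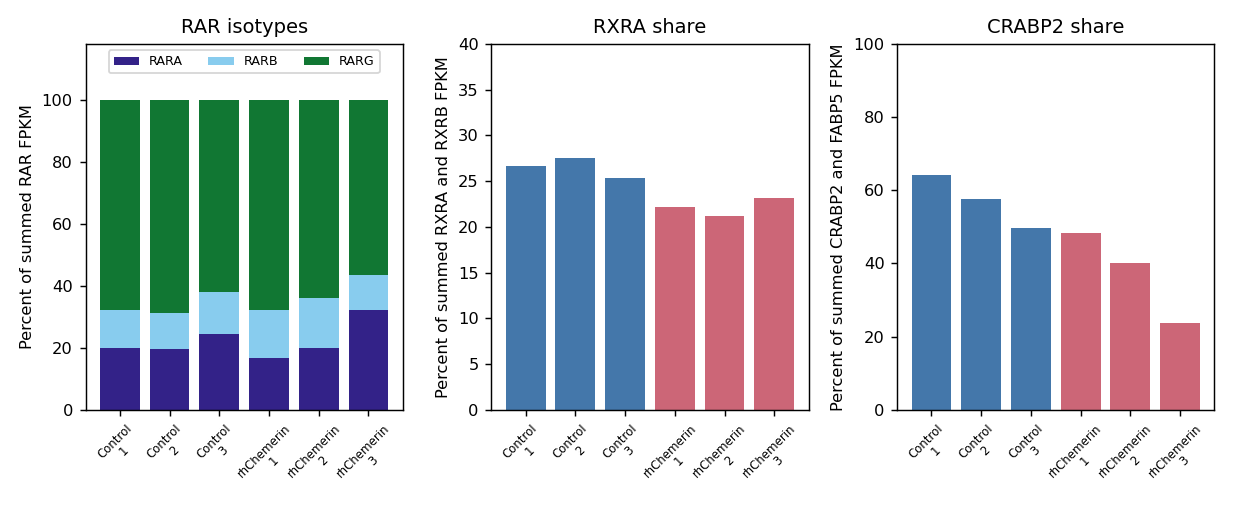
Bars give, for each library and from FPKM, each RAR as a percent of the 3 RARs, RXRA as a percent of RXRA and RXRB, and CRABP2 as a percent of CRABP2 and FABP5. RXRA lies at 25.3% to 27.5% in Control and 21.2% to 23.2% with rhChemerin, whereas the RAR percentages of the groups overlap.

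STRA6, the cell surface receptor that takes retinol from its carrier in serum, was at the limit of detection. It had 9, 20 and 48 counts in Control and 3, 7 and 97 counts with rhChemerin, or 0.0484 to 0.254 FPKM and 0.0149 to 0.494 FPKM. The lowest and the highest library were both from the rhChemerin group, 33.1-fold apart. A log2 fold change of 0.62 was fitted (SE 1.21, edgeR adjusted p = 0.775), and one of -2.28 without rhChemerin replicate 3, with an adjusted p of 0.177 by the same test. STRA6 lies at chr15:74179466-74212267 and shares 540 exon bases with CCDC33. With counts this low and this far apart within a group, no difference was called.

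CRABP2 carries retinoic acid from the cytoplasm to RARs in the nucleus. It had 28.4, 24.2 and 27.7 FPKM in Control and 21.4, 17.4 and 13.1 FPKM with rhChemerin. Every rhChemerin library was below every Control library, with means of 17.3 ± 4.16 and 26.7 ± 2.27 FPKM (SD, n = 3 each) and 513 to 1056 counts behind each value. The log2 fold change was -0.51 (SE 0.16), with an unadjusted p of 0.0141 and an adjusted p of 0.140 by edgeR, and DESeq2 gave an adjusted p of 0.0566. Without rhChemerin replicate 1 the adjusted p-values were 0.0501 and 0.00353. Of the 6 fits that left out a library, edgeR called CRABP2 in 0 and DESeq2 in 1. Their highest adjusted p-values were 0.377 and 0.270. CRABP2 lies at chr1:156699606-156705816 with no annotated gene over its exons.

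FABP5 binds retinoic acid too and carries it to PPARD, and so the balance of the 2 carriers was calculated. CRABP2 made up 64.1%, 57.6% and 49.6% of the sum of CRABP2 and FABP5 in Control and 48.3%, 40.2% and 23.6% with rhChemerin. The groups did not overlap, although the lowest Control and the highest rhChemerin library were close. The difference was -19.7 percentage points, with an exact permutation p of 0.1, and 0.2 after adjustment over the 6 comparisons. It was -12.8 without rhChemerin replicate 3 and -25.2 without rhChemerin replicate 1. FABP5 alone had 20.6 ± 6.58 FPKM in Control and 30.3 ± 10.4 FPKM with rhChemerin (SD, n = 3 each), and its edgeR adjusted p was 0.240.

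ALDH1A3, which makes retinoic acid from retinal, was by far the most abundant member. It had 593, 685 and 934 FPKM in Control and 603, 983 and 915 FPKM with rhChemerin. The groups overlapped, with the lowest value in a Control library and the highest in an rhChemerin library. ALDH1A3 ranked between 20 and 49 among all genes of the tables by FPKM in each library, and 72894 to 123806 counts lay behind each value, so that its spread is not one of counting. Its log2 fold change was 0.32 (SE 0.25, edgeR adjusted p = 0.463), and it was -0.06 when the trend of fold change on abundance was removed. Without rhChemerin replicate 1, DESeq2 gave 0.53 with an adjusted p of 0.0446. ALDH1A3 was called in that 1 of 6 DESeq2 fits that left out a library, with adjusted p-values up to 0.788. ALDH1A3 lies at chr15:100877714-100916626 and shares 1585 exon bases with AC015712.2, an antisense gene that has no row in the tables.

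The other enzymes of the same step were at lower levels. ALDH1A2 had 25.3 ± 1.09 FPKM in Control and 20.3 ± 6.40 FPKM with rhChemerin (SD, n = 3 each). ALDH1A1 had 13.8, 8.72 and 5.29 FPKM in Control and 15.0, 3.46 and 0.651 FPKM with rhChemerin and its highest library was 23.1-fold above its lowest. Neither passed the edgeR test, with adjusted p-values of 0.522 and 0.775.

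CYP26B1, which oxidises retinoic acid, was the member with the smallest p. It lies at chr2:72129238-72148038 with no annotated gene over its exons. Its level was 4.75, 4.24 and 4.16 FPKM in Control and 2.10, 1.53 and 2.98 FPKM with rhChemerin, from 803, 743 and 715 counts and from 384, 265 and 531 counts. Every rhChemerin library was below every Control library, and the Control libraries were close together while the rhChemerin libraries were spread. The log2 fold change was -0.85 (SE 0.26), with an unadjusted p of 0.0127 and an adjusted p of 0.135 by edgeR. DESeq2 gave the same log2 fold change of -0.85 with an adjusted p of 0.0266, so that CYP26B1 fell by that test. This call held in 1 of the 6 DESeq2 fits that left out a library, with adjusted p-values from 9.55e-09 without rhChemerin replicate 3 to 0.175 without Control replicate 1. Without rhChemerin replicate 3, the library nearest to Control, edgeR gave -1.19 with an adjusted p of 0.0258, and without any other library the adjusted p was between 0.125 and 0.383. The other 2 enzymes of the family, CYP26A1 and CYP26C1, had 0 to 4 and 0 to 16 counts per library and were not tested. In bulk RNA, fewer cells with the transcript and less transcript per cell cannot be told apart.

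The log2 ratio of ALDH1A3 to CYP26B1, the enzymes of synthesis and clearance, was 6.96, 7.34 and 7.81 in Control and 8.17, 9.33 and 8.27 with rhChemerin. The groups did not overlap, and the difference was 1.22 with an exact permutation p of 0.1, or 0.2 after adjustment over the 6 comparisons. CYP26B1 accounted for the larger part of it, since the fitted log2 fold changes were -0.85 for CYP26B1 and 0.32 for ALDH1A3.

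**Figure D3:**
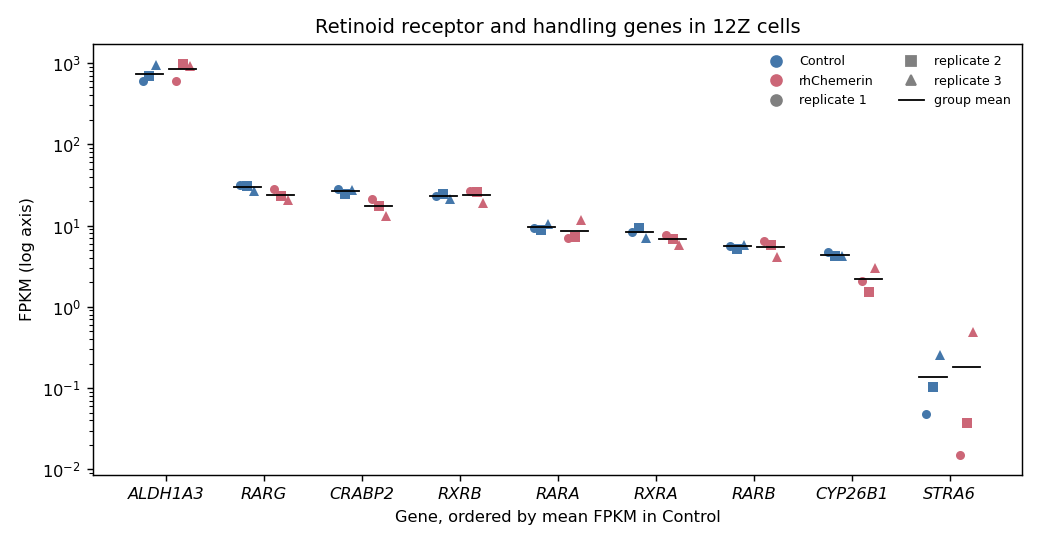
FPKM of each member in each of the 6 libraries on a log axis, Control and rhChemerin side by side, with the mean of each group. ALDH1A3 lies between 593 and 983 FPKM, the receptors and CRABP2 between 4.05 and 31.8 FPKM, and STRA6 below 0.494 FPKM.

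The order of the levels in Control, per length, was ALDH1A3, RARG, CRABP2, RXRB, RARA, RXRA, RARB, CYP26B1 and STRA6. ALDH1A3 was 24.9-fold above RARG, and CYP26B1 was 32.4-fold above STRA6. RARG and CRABP2, CRABP2 and RXRB, and RARA and RXRA were neighbours whose ranges overlapped, and the other neighbours did not overlap. With rhChemerin, RXRB stood above CRABP2, although the ranges of these 2 overlapped in both groups, and all other positions were the same.

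The signs of the members were mixed. Of the 9, 5 had a log2 fold change above 0 and 4 below 0, beside 6886 and 6425 of all tested genes. Their median was 0.00, beside 0.01 over all tested genes, and was the value of RARA, the middle gene. Taken library by library against the Control mean, the median of the members was 0.05, -0.09 and 0.05 in Control. With rhChemerin it was -0.20, -0.23 and -0.22. The median over all genes lay between -0.003 and 0.007 in every library. This difference was not tested. With library size alone the median log2 fold change of the members was -0.15 and that of all genes -0.12. There 6 of the 9 were below 0, beside 8860 of the 13311 tested genes. The direction of RARA turned under most other scalings and tests, and RARB, STRA6 and ALDH1A3 each turned under at least 1.

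**Figure D4:**
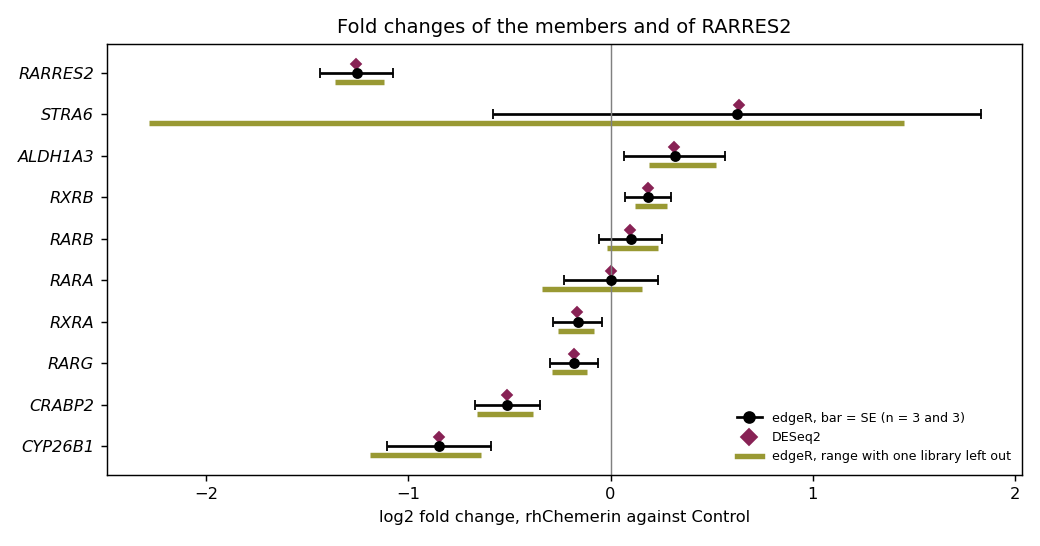
Log2 fold change of each member and of RARRES2, rhChemerin against Control, from edgeR (black points, bars are the SE) and from DESeq2 (diamonds), with a thick line for the range of the edgeR value when 1 library was left out. Among the members, CYP26B1 at -0.85 and CRABP2 at -0.51 lie farthest below 0, and RARRES2 lies at -1.26. STRA6 at 0.62 has a range from -2.28 to 1.45 on leaving out a library.

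The 3 genes whose pattern over the 6 libraries was most like that of CYP26B1, by the root mean square difference of centred log2 CPM, were DACT3 at 0.18, C3orf62 at 0.18 and SLC2A6 at 0.18. Their edgeR adjusted p-values were 0.219, 0.0948 and 0.0840. RARRES2 differed from CYP26B1 by 0.30 on this measure. Its level, in FPKM, was 28.9, 29.7 and 37.5 in Control and 13.7, 9.86 and 13.1 with rhChemerin. Its fitted difference on the log2 scale was -1.26 (SE 0.18, edgeR adjusted p = 0.0692), and DESeq2 called it lower with an adjusted p of 2.43e-07 and in 6 of 6 fits that left out a library. As for CYP26B1, no rhChemerin library reached the Control range.

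The rest of the pathway was read from lists of 76 further genes, of which 67 were in the tables and 55 were tested. Their median log2 fold change was -0.18, with 19 above and 36 below 0. Over all tested genes the median was 0.01, with 6886 above and 6425 below 0. None was called by edgeR, 7 were lower and 2 higher at an unadjusted p under 0.05, beside 11.4% of all genes in each direction, and DESeq2 called 4, all lower: RBP7, SCARB1, RARRES2 and THRB, beside 5.61% of all genes called lower. With a library left out, DESeq2 called 1 to 10 of them. In the fit with 1 it called 283 of 16097 genes, and in the fit with 10 it called 2616 of 16168. In FPKM, 15 of the 55 lay below every Control library in every rhChemerin library and 0 above, beside 25.1% and 7.36% of all genes. After TMM scaling 9 lay below and 4 above, beside 16.0% and 16.5% of all genes. Read against these shares, the counts of lower genes were near the background. With library size alone their median was -0.32, beside -0.12 over all genes.

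Among uptake and binding proteins, 8 genes were tested, including CRABP2 and STRA6, with a median of -0.45, and 6 were below 0. SCARB1, a lipoprotein receptor that also takes up carotenoids, had 44.0 ± 2.82 FPKM in Control and 29.1 ± 3.88 FPKM with rhChemerin (SD, n = 3 each). Its log2 fold change was -0.47 (SE 0.09, edgeR adjusted p = 0.0752), and it fell by DESeq2, with an adjusted p of 0.00162. RBP7, a cellular retinol binding protein, had 14.9 ± 0.470 and 6.72 ± 2.85 FPKM (SD, n = 3 each), with a log2 fold change of -1.04 (SE 0.29, edgeR adjusted p = 0.123) and a fall by DESeq2 at an adjusted p of 0.0125. Leaving out a library kept the DESeq2 call of SCARB1 in 5 of 6 fits and that of RBP7 in 2 of 6. For both, as for CRABP2, the 2 groups of libraries did not overlap. CRABP1, the other cellular retinoic acid binding protein, had 0 to 4 counts per library.

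Of 10 tested enzymes that convert retinol and retinal, none was called by either tool and the median was -0.23. RDH13 had 2.69 FPKM in Control and 1.83 FPKM with rhChemerin, with an edgeR adjusted p of 0.152. RDH10, which oxidises retinol in the first step towards retinoic acid, had 5.46 and 7.98 FPKM, with a log2 fold change of 0.69 (SE 0.33, edgeR adjusted p = 0.257). DHRS3, which reduces retinal back to retinol, was the most abundant of them at 101 ± 16.3 and 82.7 ± 21.1 FPKM (SD, n = 3 each). Of the storage genes, LRAT, which esterifies retinol, had 0 to 4 counts per library, and DGAT1, which can also do so, had 12.0 FPKM in Control and 9.35 FPKM with rhChemerin, with an edgeR adjusted p of 0.249.

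All 12 tested corepressors and coactivators of the receptors missed both tools' thresholds, and 11 of them were above 0, with a median of 0.13. Over all tested genes 6886 were above and 6425 below 0. With library size alone 6 of the 12 were above and 6 below 0, with a median of 0.00082, beside 4451 above and 8860 below over all genes. HDAC3, the deacetylase of the corepressor complex, had 44.2 FPKM in Control and 48.3 FPKM with rhChemerin, with an edgeR adjusted p of 0.135. NRIP1, a corepressor that is itself induced by retinoic acid, had 10.9 and 14.2 FPKM, with an edgeR adjusted p of 0.154. Of 15 retinoid-responsive genes, which include the members RARB, CRABP2 and STRA6, 11 were below 0 and 4 above, with a median of -0.17, and RARRES2 was the only one that DESeq2 called.

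RXRs also pair with other nuclear receptors, of which 11 were tested, with a median of -0.30. THRB, a thyroid hormone receptor, had 0.820 ± 0.0555 FPKM in Control and 0.479 ± 0.111 FPKM with rhChemerin (SD, n = 3 each). Its log2 fold change was -0.65 (SE 0.19, edgeR adjusted p = 0.134), and it fell by DESeq2 at an adjusted p of 0.0314, a call that held in 1 of 6 fits with a library left out. VDR, the vitamin D receptor, had 1.48 and 2.47 FPKM with a log2 fold change of 0.92 (SE 0.65, edgeR adjusted p = 0.417). NR1H2, an oxysterol receptor, was the most abundant partner, with 39.9 FPKM in Control and an edgeR adjusted p of 0.780.

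**Figure D5:**
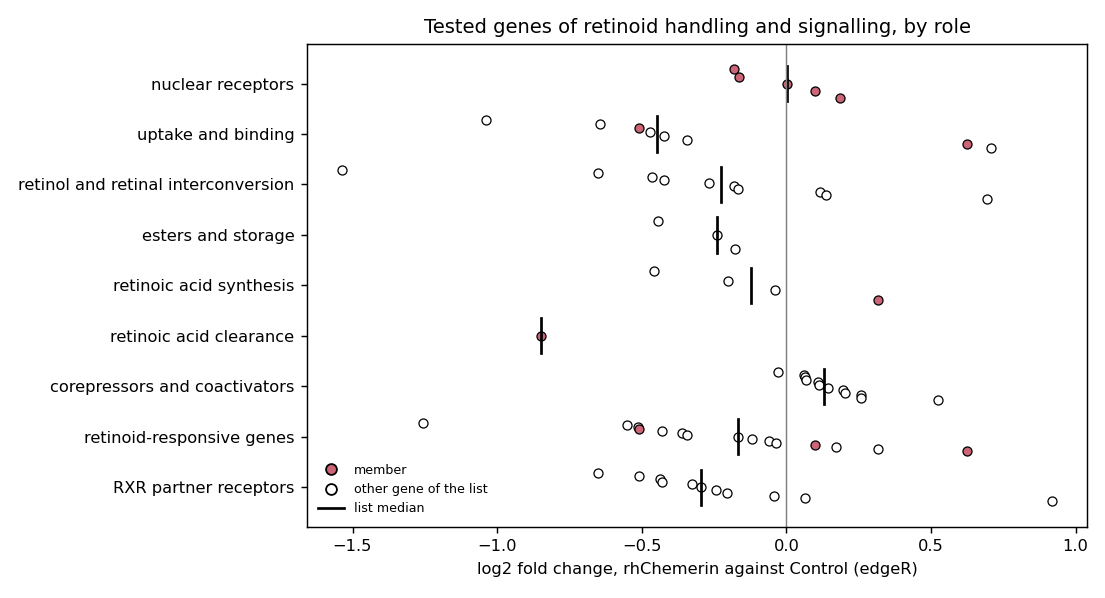
Log2 fold change of every tested pathway gene by list, rhChemerin against Control, from edgeR, with filled points for the members and a vertical line for the median of each list. The corepressors and coactivators lie mostly above 0, with a median of 0.13 that was 0.00082 with library size alone, and the uptake and binding genes mostly below it, with a median of -0.45.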

How the data were processed

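Reads were cleaned by the authors (fastp), mapped to GRCh38.p13 (HISAT2) and assigned to genes (HTSeq-count). The deposited counts were used as they stand, and the FPKM deposited by the authors gave the levels. The gene length implied by count, total and FPKM was within 1% of its median over the libraries in 100% of 79491 values compared. This compares libraries with each other only, since the lengths were not compared with an annotation. The strand setting and annotation release are not given in the sources used here. Columns of gene descriptions and annotation terms were not used.

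The main test was that of edgeR 4.0.16 under R 4.3.3 (TMM factors, its filter on low counts, quasi-likelihood test, Benjamini-Hochberg adjustment over 13311 genes, threshold 0.05). DESeq2 1.42.0, limma 3.58.1, other factors and filters, a replicate block and fits without each library in turn were alternatives. The scripts were tested on simulated data. Proportions were compared by exact permutation with scipy 1.17.1. Gene positions and exon overlaps came from GENCODE release 29 (GRCh38).

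The members and gene lists were chosen with earlier results of these data known. Beside the members and RARRES2, the text names from each list the genes called by edgeR or DESeq2, otherwise the smallest p in each direction, and the most abundant gene. FABP5, ALDH1A1 and genes with too few counts were named for their roles, and marker genes that differed after their values were seen. Intervals of counting error were not needed, since each value has replicates. The summed level of the immune marker list is not reported here.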

Additional observations from a re-analysis of the deposited data

How the results depend on the processing

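RARG, RXRA, RXRB, CRABP2 and CYP26B1 kept their direction under every alternative. RARA, at 0.00 on the log2 scale, was -0.00011 with DESeq2, -0.058 with voom, -0.16 and -0.18 with limma on log2(FPKM + 1) and log2(FPKM + 0.1), -0.15 with library size alone, -0.0040 with RLE factors, -0.056 with upper quartile factors, -0.010 with a minimum of 1 CPM, -0.035 with the abundance trend removed, -0.051 with the replicate block and -0.053 with the block in DESeq2. RARB was -0.035 and -0.044 with limma and -0.020 with library size alone. STRA6 was -0.62 with voom, -0.065 with log2(FPKM + 0.1), and -0.29 and -0.48 with the block in edgeR and DESeq2, and it had no value with a minimum of 1 CPM. ALDH1A3 was -0.062 with the abundance trend removed. The median of the members was -0.16 with voom, -0.16 and -0.18 with limma, -0.15 with library size alone, -0.092 with a minimum of 1 CPM, -0.062 with the abundance trend removed, and -0.16 with the block in edgeR and in DESeq2. This median is the value of the middle gene. It was that of RXRA with voom and in both fits with the block, and that of RARA in both limma fits and with library size alone. With the abundance trend removed it was that of ALDH1A3. With a minimum of 1 CPM, where STRA6 had no value, it lay between RARA and RXRA. Why single genes changed direction was not tested.

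Leaving out each library gave log2 fold changes from -0.34 to 0.15 for RARA, -0.018 to 0.24 for RARB, -2.28 to 1.45 for STRA6 and -1.19 to -0.64 for CYP26B1, and medians of the members from -0.12 to 0.067. The RARA percentage difference ranged from -3.06 to 4.71. Members called by edgeR ran from 0 to 1, pathway genes from 0 to 5 and all genes from 0 to 844, with 844 without rhChemerin replicate 1 and 415 without rhChemerin replicate 3. Members with an unadjusted p under 0.05 ran from 1 to 4 lower and 0 to 1 higher, and those whose groups did not overlap from 2 to 4 lower and 0 to 2 higher. The share of all genes whose groups did not overlap was not calculated with a library left out. Fewer libraries separate more easily, so the shares given for all libraries do not apply and nothing is read from these counts.

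All genes called were 1302 with DESeq2 over 16276 genes, 7 with voom, 179 and 23 with limma at pseudocounts of 1 and 0.1, 0 with upper quartile factors (2908 at an unadjusted p under 0.05), 17 without a filter and 7 with the abundance trend removed. DESeq2 called 1 member, CYP26B1 at -0.85, and 4 pathway genes, and each limma fit called 1 pathway gene. DESeq2 with each library left out and DESeq2 with the block were chosen after seeing the data. With Control replicates 1, 2 and 3 left out in turn, DESeq2 called 658, 283 and 518 genes, 2, 1 and 2 pathway genes and 0 members, and the medians of the members were -0.00042, -0.064 and 0.065, each of which was the value of RARA. With rhChemerin replicates 1, 2 and 3 left out it called 2616, 584 and 1695 genes, 10, 2 and 7 pathway genes, and 2, 0 and 3 members. Without replicate 1 these were CRABP2 at -0.66 and ALDH1A3 at 0.53, with RARB, not called, at -0.012. Without replicate 3 they were CYP26B1 at -1.19, RARA at -0.33 and RXRB at 0.29, with STRA6, not called, at -2.30 and a median of -0.11. Members with an unadjusted p under 0.05 in these fits were up to 4 lower and up to 1 higher.

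Deviations from the group mean correlated at 0.241, 0.0015 and 0.246 in the same-numbered pairs, and at -0.306 to 0.106 in the others. In 2 of 3 same-numbered pairs the correlation was thus above that of every other pair. The labels do not say that equal numbers mark a pair, so the main test had no block, and whether they do was not tested. With the block the edgeR SE was smaller for every member, such as 0.16 in place of 0.25 for ALDH1A3. The replicate block left 1 gene called in place of 4 and 0 members, and DESeq2 with the block called 1447 genes, 6 pathway genes and 2 members, CYP26B1 at -0.91 and CRABP2 at -0.52, with 1 member higher at an unadjusted p under 0.05.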
